A study of Mus musculus with 72 samples.

Results

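Polysomal RNA of 3 Eμ-Myc B-lymphoma lines that had regrown in everolimus-treated mice was compared with polysomal RNA of 3 lines from vehicle-treated mice, called drug-naive in the labels. These 6 libraries were taken by their labels from the 72 of the series, which also holds matching input RNA, lines that relapsed under CX-5461 or under both drugs, and an acute experiment on another clone. All 6 lines descend from 1 lymphoma clone, clone #107, which carries the Eμ-Myc transgene, a Myc gene driven by the immunoglobulin heavy chain enhancer, and the retroviral vector MSCV Gfp. The cells had been transplanted into mice and were recovered from lymph nodes when disease ended the experiment. They were then grown in culture for 2 to 3 passages. The dose of everolimus in these mice, the time to relapse, and whether the cultures held drug are not given in the sources used here, nor are the strain, age and sex of these hosts. The naive lines are numbered 6, 33 and 38 and the everolimus lines 4, 12 and 26. The p-values measure the spread between lines of 1 clone.

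Everolimus, a derivative of rapamycin, binds FKBP12 and inhibits mTORC1, the kinase complex that phosphorylates the 4E-BP proteins and the S6 kinases and so promotes translation and ribosome production. In Eμ-Myc lymphoma, Myc drives B-lineage cells into continuous growth, and mTORC1 activity supports that growth. Polysomal RNA is the RNA that sediments with several ribosomes in a sucrose gradient, here pooled from fractions with at least 4 ribosomes, so its level follows both how much of a transcript is present and how heavily it is loaded.

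The 6 libraries held 16468493 to 26520590 counts on genes and detected 18927 to 20843 genes. B cell markers summed to 3880 to 4300 CPM (counts scaled to library size, as edgeR's cpm gives them) in the naive and 3420 to 3790 CPM in the everolimus lines. NK cell markers summed to at most 0.544 CPM in any line. Of the 13 T cell markers measured, Cd3e, Cd4, Cd8a and Trbc2 had 0 counts in all 6 libraries, and of the 15 macrophage and myeloid markers 6 were at 0, among them C1qa, C1qb and S100a8. Summed macrophage and myeloid markers were 15.4 to 16.1 CPM in the naive and 14.7 to 23.6 CPM in the everolimus lines, mostly from Mrc1. Summed T cell markers were 77.9 to 86.2 CPM in the naive and 83.6 to 109 CPM in the everolimus lines, mostly from Cd2. In such bulk samples fewer cells of a type and less RNA per cell cannot be told apart. Median differences between libraries over genes were 0.178 to 0.259 on the log2 scale within the naive lines, 0.209 to 0.292 within the everolimus lines and 0.24 to 0.354 between them, and no pair agreed within sampling noise.

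Of 15434 genes tested in polysomal RNA, 75 passed an adjusted p of 0.05 (edgeR quasi-likelihood test, 0.486%), with 54 higher in the everolimus lines (0.35%) and 21 lower (0.136%). The genes that rose included the recombination gene Rag1, a kappa light chain V segment, the integrin subunit Itga5, the receptor Erbb3 and the adaptor Sh2d2a. The falls included the clock repressor Cry1, the fatty acid receptor Cd36, the growth factor receptor Igf1r, the BAFF receptor Tnfrsf13c and the cyclin Ccnd3. Among the 54 rises 46 exceeded 1 on the log2 scale, and among the 21 falls 13 did. In all 75 the 3 everolimus libraries lay wholly above or below the 3 naive ones, as they did in 20.1% of all genes tested (9.41% higher and 10.7% lower).

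The number of calls rested heavily on single lines. It was 49 without naive line 6, 14 without naive line 33 and 13 without naive line 38. Leaving out everolimus line 4, 12 or 26 gave 189, 24 and 26 calls, of which 71, 24 and 23 belonged to the 75. Of 69 called genes followed through all fits, each kept its direction, and 10 passed whichever line was left out: Arsb, Cry1, Erbb3, Hoxb9, Igkv5-43, Plek, Rag1, Sh2b2, Sh2d2a and Zfp518b. Levels below are log2 CPM with a prior count of 2, and changes are log2 fold changes ± SE, everolimus minus naive, with n = 3 lines per group.

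**Figure D1:**
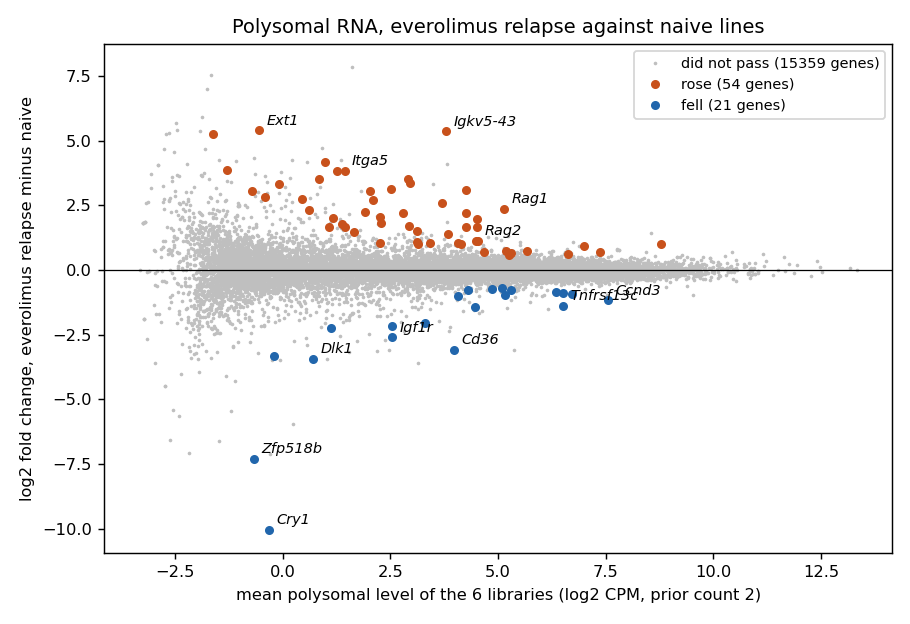
Log2 fold change in polysomal RNA, everolimus relapse minus naive, against the mean level of the 6 libraries in log2 CPM, for the 15434 genes tested, with 54 genes that rose in orange and 21 that fell in blue. Cry1 and Zfp518b lie lowest, where the fitted size depends on the prior count because the everolimus lines held 0 or 1 count, and many genes of low level with large fitted changes did not pass.

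Rag1 and Rag2 both rose. Rag1 and Rag2 encode the 2 subunits of the RAG recombinase, which joins the V, D and J segments of immunoglobulin genes in developing B cells and is reused for light chain editing. The genes lie beside each other on chromosome 2 on opposite strands and are transcribed towards each other. Their promoter windows, the 250 bases upstream of the RefSeq start (build GRCm38.p6), are shown because both genes passed. Capitals mark CAGGTG, an E-box form bound by E proteins such as E2A.
Rag1 promoter, chr2:101649533-101649782, minus strand: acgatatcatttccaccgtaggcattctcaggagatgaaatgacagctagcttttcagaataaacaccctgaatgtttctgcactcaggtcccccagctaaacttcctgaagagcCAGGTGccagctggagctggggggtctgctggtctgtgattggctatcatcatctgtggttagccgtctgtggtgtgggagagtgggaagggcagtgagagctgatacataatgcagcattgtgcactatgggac
Rag2 promoter, chr2:101624462-101624711, plus strand: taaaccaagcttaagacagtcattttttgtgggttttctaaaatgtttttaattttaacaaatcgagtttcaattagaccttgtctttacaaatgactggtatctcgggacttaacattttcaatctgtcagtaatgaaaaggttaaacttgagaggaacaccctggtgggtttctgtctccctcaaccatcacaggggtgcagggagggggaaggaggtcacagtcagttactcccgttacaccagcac
The match in the Rag1 window starts 135 bases upstream of the start. Of 32851 promoter windows of this length, 17.2% hold CAGGTG or its reverse complement CACCTG. The Rag2 window held neither form. It also held no CACGTG on either strand, the E-box form that circadian and Myc-family factors bind, which says only that these letters are not in that window.

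Rag1 stood at 3.93, 3.81 and 4.23 in naive lines 6, 33 and 38, and at 6.23, 6.85 and 5.80 in everolimus lines 4, 12 and 26. The groups were far apart, with line 12 highest. The change was 2.37 ± 0.27 (adjusted p = 0.00424, 5.16-fold), and it ranged from 2.04 to 2.58 with any 1 line left out, with an adjusted p of at most 0.044. Rag2 was at 3.67, 3.87 and 4.30 in the naive lines and at 5.13, 5.07 and 5.12 in the everolimus lines, which were nearly level with each other. It rose by 1.14 ± 0.18 (adjusted p = 0.0222), a call that ended when naive line 6 or 33 or everolimus line 12 or 26 was left out (adjusted p up to 0.138). The flanking gene Traf6, a ubiquitin ligase of innate immune signalling, 40 kb from Rag1, was at -0.01 ± 0.11. B230118H07Rik, whose annotated span holds both Rag genes, rose by 2.82 ± 0.51 (adjusted p = 0.0387), and its reads cannot be told apart from theirs where exons overlap. In the list of recombination and surrogate light chain genes, 2 of 13 tested rose and 0 fell, against 0.35% and 0.136% of all genes. The list's median was -0.14 against -0.01 over all genes. The surrogate light chain genes Igll1 and Vpreb1, which mark pre-B cells, were at -2.57 ± 1.09 and -2.32 ± 1.10 and did not pass (adjusted p = 0.334 and 0.389).

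Kappa light chain V segments differed between lines as well. Igkv5-43 (chromosome 6, 69823355 to 69823943, minus strand) stood at 0.33, 1.39 and 1.94 in naive lines 6, 33 and 38 and at 5.35, 6.22 and 7.52 in everolimus lines 4, 12 and 26. Every everolimus line was above every naive line. It rose by 5.36 ± 0.57 (adjusted p = 0.00287), and 2 other kappa segments rose with it, Igkv5-45 by 4.19 ± 0.63 (adjusted p = 0.0209) and Igkv12-41 by 2.73 ± 0.44 (adjusted p = 0.0262). As a share of all polysomal counts on Igkv segments, Igkv5-43 made up 0.185% to 0.769% in the naive lines and 11.8%, 17.3% and 39.9% in everolimus lines 4, 12 and 26. V segments are near-identical families, so the split of short reads between them is uncertain.

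The segment in the lead changed in 2 of the 3 everolimus lines. Igkv1-117 took 52.4% (95% exact binomial interval 51.5 to 53.2), 76.3% (75.4 to 77.1) and 79.8% (78.9 to 80.7) of Igkv counts in naive lines 6, 33 and 38. It still led in everolimus line 4 with 36% (34.8 to 37.3), but held 0.0513% in line 12 and 0.581% in line 26. Line 12 was led by Igkv4-57-1 with 60.3% (59.4 to 61.1), and line 26 by Igkv5-43 with 39.9% (38.9 to 41). These intervals cover counting error only, since reads carry no molecular identifiers. In the heavy chain Ighv2-2 led in every line, with 84.7% to 86.6% of Ighv counts in the naive and 81.7% to 83.5% in the everolimus lines. Input RNA gave the same leading kappa segment in each of the 6 lines, with Igkv1-117 at 59.3%, 75.1% and 77.2% in the naive lines and 45.7%, 0.141% and 0.611% in everolimus lines 4, 12 and 26. The kappa constant gene Igkc was at -0.95 ± 0.28 (adjusted p = 0.174) and the heavy chain gene Ighm at -0.30 ± 0.17 (adjusted p = 0.498), so neither passed.

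**Figure D2:**
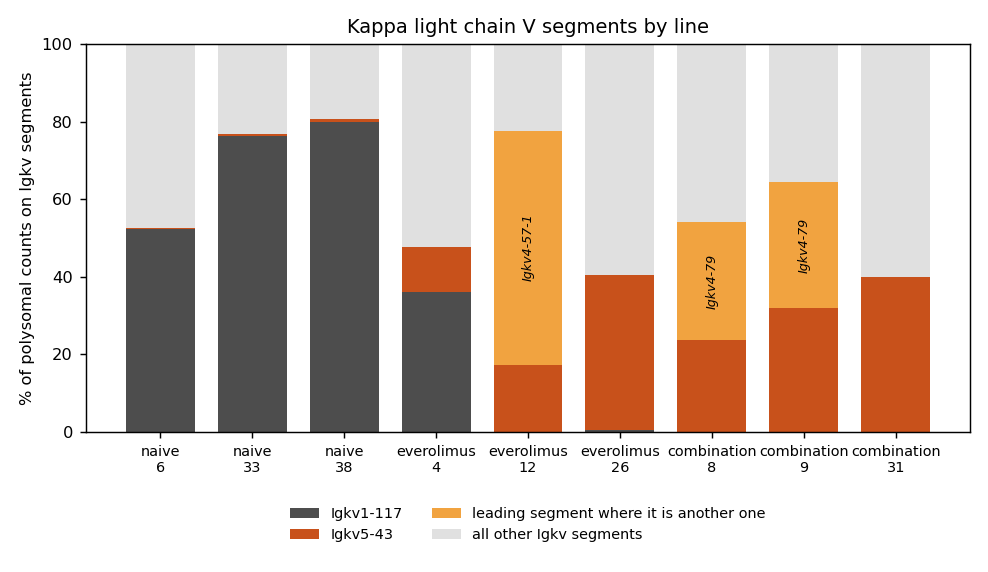
Share of polysomal counts on kappa V segments in each line, in %, for 3 naive, 3 everolimus and 3 combination relapse lines, with Igkv1-117 in dark grey, Igkv5-43 in dark orange, another leading segment in light orange and all others in pale grey. Igkv1-117 leads in the 3 naive lines and everolimus line 4 (36%) and is below 1% in everolimus lines 12 and 26 and in the combination lines.

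Among the 12 named rises, 5 genes with known roles at the cell surface, in the cytoskeleton or in the matrix are given first, an order chosen after their values were seen. Itga5, the α5 subunit of the fibronectin receptor, stood at -0.61, 0.12 and -0.50 in naive lines 6, 33 and 38, and at 2.75, 4.16 and 2.70 in everolimus lines 4, 12 and 26. The groups were apart and line 12 was highest. It rose by 3.84 ± 0.64 (adjusted p = 0.0282). Synpo2, an actin-binding protein, was at 3.44, 2.26 and 2.49 in the naive lines and at 5.01, 6.62 and 5.67 in the everolimus lines. Again line 12 was highest and no libraries overlapped, and the rise was 3.11 ± 0.42 (adjusted p = 0.0114). Col27a1, a fibrillar collagen chain, went from 3.86, 2.93 and 2.73 to 4.99, 6.14 and 4.86, a rise of 2.20 ± 0.39 (adjusted p = 0.0352). Mag, a sialic acid-binding adhesion molecule known from myelin, went from 1.13, 0.79 and 0.45 to 2.80, 3.10 and 3.15, a rise of 2.26 ± 0.38 (adjusted p = 0.0312). These groups did not overlap either. Plek, the protein kinase C substrate pleckstrin, stood at 3.05, 1.62 and 2.42 in the naive lines and at 4.74, 5.01 and 5.36 in the everolimus lines, which differed little among themselves. It rose by 2.60 ± 0.30 (adjusted p = 0.00424) and passed with any 1 line left out, as the other 4 genes did not.

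Erbb3, a receptor of neuregulins in the EGF receptor family (chromosome 10, 128567523 to 128589652), stood at 1.00, 0.91 and 0.45 in naive lines 6, 33 and 38 and at 2.88, 3.67 and 3.69 in everolimus lines 4, 12 and 26. All 3 everolimus lines were well above the naive lines. The rise was 2.71 ± 0.31 (adjusted p = 0.00424), and 2.56 to 2.93 with any 1 line left out. Sh2d2a, the T cell adaptor TSAd, was at 1.57, 0.95 and 1.11 in the naive lines and at 3.74, 5.01 and 5.04 in the everolimus lines. It rose by 3.52 ± 0.35 (adjusted p = 0.00188), and line 4 was the lowest of the 3. Sh2b2, an adaptor of receptor kinases also called APS, lay below the level set for naming and was chosen after its values were seen. It went from -0.25, -1.52 and -0.63 to 2.51, 3.09 and 1.82, a rise of 3.50 ± 0.40 (adjusted p = 0.00424). Ipcef1, a partner of the cytohesin exchange factors, went from 0.66, 0.91 and 0.10 to 2.85, 3.54 and 4.07, a rise of 3.05 ± 0.38 (adjusted p = 0.00697). The everolimus lines were above the naive lines in both genes. The Ipcef1 call ended only without naive line 38 among the 6 lines (adjusted p = 0.0509).

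Among regulators of transcription, Hoxb9, a homeobox factor (chromosome 11, 96271457 to 96276595), stood at -0.51, -0.33 and -0.77 in naive lines 6, 33 and 38. In everolimus lines 4, 12 and 26 it was at 2.48, 3.23 and 3.42. The groups were separated by more than the spread within either, and the rise was 3.81 ± 0.35 (adjusted p = 0.00129, 14-fold). The neighbouring long noncoding RNA Gm53, named after its value was seen, rose by 3.14 ± 0.23 (adjusted p = 0.000338), from 1.22, 0.91 and 0.79 to 3.74, 4.38 and 4.02. Chd3, a helicase of the NuRD chromatin complex, was at 2.39, 0.57 and 0.94 in the naive lines and at 4.26, 5.75 and 3.84 in the everolimus lines. Both groups were wide, and the rise of 3.37 ± 0.63 just passed (adjusted p = 0.0493). Its call ended without any 1 line other than everolimus line 4 (adjusted p up to 0.234). Gm22442, a small RNA gene inside Chd3 on the same strand, lay below the level set for naming and was chosen after its value was seen. It rose by 3.86 ± 0.66 (adjusted p = 0.0327), from 4 to 69 summed counts, and reads of Chd3 transcripts may be among these.

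**Figure D3:**
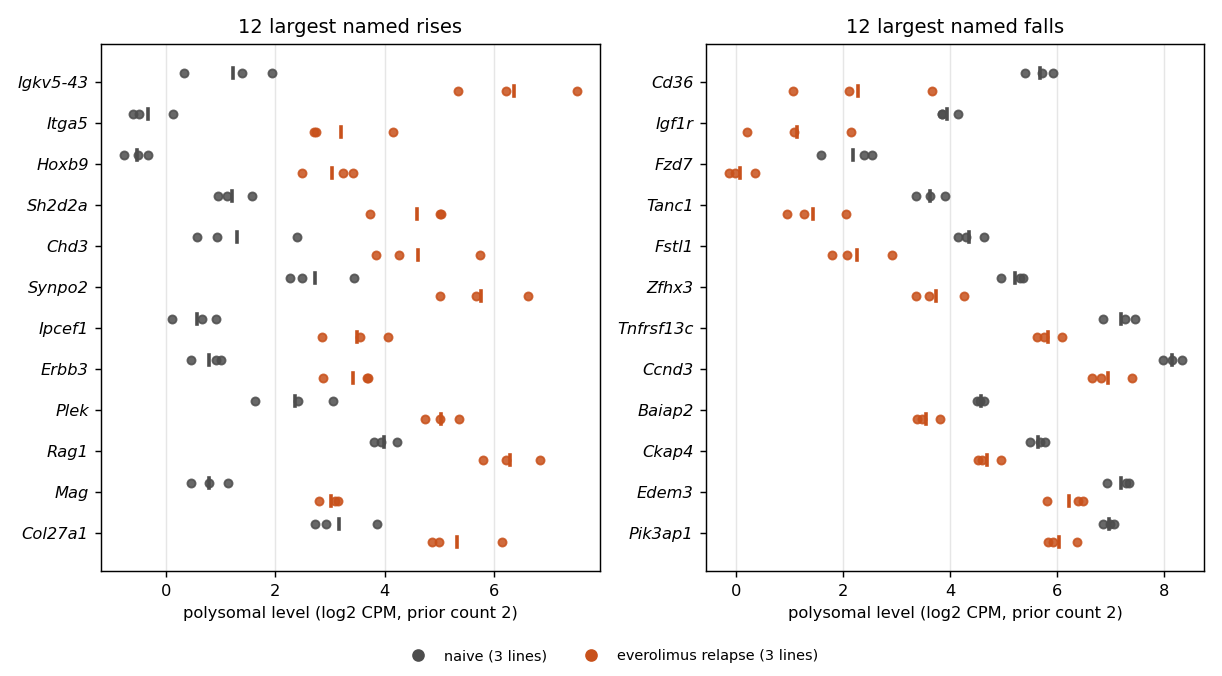
Polysomal levels in log2 CPM of the 12 largest named rises (left) and 12 largest named falls (right), with 1 point per library, naive lines in grey above everolimus lines in orange, and a bar at each mean. In all 24 genes the 3 everolimus libraries lie wholly on one side of the 3 naive libraries.

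Of the 12 named falls 4 were receptors, counted after their values were seen. Cd36, a scavenger receptor that takes up long-chain fatty acids (chromosome 5, 17781690 to 17888801), stood at 5.41, 5.72 and 5.92 in naive lines 6, 33 and 38 and at 3.67, 1.06 and 2.12 in everolimus lines 4, 12 and 26. The naive lines were close together, and the everolimus lines were all lower but spread widely. It fell by 3.07 ± 0.50 on the log2 scale (adjusted p = 0.0265). Igf1r, the receptor of insulin-like growth factor 1, which signals through PI3K to mTORC1, was at 3.86, 4.15 and 3.85 in the naive lines. In the everolimus lines it was at 1.08, 2.15 and 0.20, with line 26 lowest. It fell by 2.59 ± 0.41 on the log2 scale (adjusted p = 0.0258). Fzd7, a Wnt receptor, went from 1.60, 2.39 and 2.55 to -0.01, 0.35 and -0.13, a fall with a log2 fold change of -2.23 ± 0.30 (adjusted p = 0.0114). Tnfrsf13c, the BAFF receptor that mature B cells need to survive, went from 6.86, 7.45 and 7.26 to 6.10, 5.63 and 5.75, a log2 fold change of -1.37 ± 0.20 (adjusted p = 0.0172). The 3 everolimus lines were below the naive lines in each. In the B cell list of 53 tested genes Tnfrsf13c was the only member past the threshold, which 0.486% of all genes passed. The list's median was -0.02.

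The other 8 of the 12 named falls were not receptors. Ccnd3, the D-type cyclin that drives the cell cycle of pre-B and germinal centre B cells, stood at 8.14, 7.98 and 8.33 in naive lines 6, 33 and 38. It was at 7.40, 6.65 and 6.83 in everolimus lines 4, 12 and 26, all lower. Its log2 fold change was -1.16 ± 0.21 (adjusted p = 0.0351). Pik3ap1, the adaptor BCAP that links the B cell receptor to PI3K, went from 6.99, 7.06 and 6.85 to 6.38, 5.83 and 5.92, a log2 fold change of -0.90 ± 0.15 (adjusted p = 0.0295). Fstl1, a secreted follistatin-like glycoprotein, went from 4.15, 4.64 and 4.30 to 2.91, 2.08 and 1.79, a log2 fold change of -2.06 ± 0.31 (adjusted p = 0.0216). No libraries of the groups overlapped in these genes. Tanc1, a scaffold protein, and Zfhx3, a large homeobox factor, had log2 fold changes of -2.15 ± 0.31 and -1.43 ± 0.21 (adjusted p = 0.0172 and 0.0205). Edem3, which trims mannose from misfolded glycoproteins in the endoplasmic reticulum, and Ckap4, a membrane protein of the same organelle, were at -0.94 ± 0.17 and -0.96 ± 0.15 (adjusted p = 0.0358 and 0.0258). Baiap2, the membrane-bending protein IRSp53, was at -1.02 ± 0.18 (adjusted p = 0.0342).

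The calls of the 12 falls depended on single lines. None of the 12 passed in the edgeR fits without naive line 33, without naive line 38 or without everolimus line 26, while 12 passed without everolimus line 4. Their log2 fold changes kept their sign throughout, for example -4.09 to -2.62 for Cd36 and -3.33 to -2.24 for Igf1r with any 1 line left out. Of the 12 rises, 6 passed with any 1 line left out. With the libraries of CX-5461 lines 14 and 39 added to the fit, 4 of the 12 rises and 1 of the 12 falls passed, which are Hoxb9, Ipcef1, Erbb3, Rag1 and Tnfrsf13c. DESeq2 called all 24, among 2.87% of all genes it tested (1.8% higher and 1.06% lower).

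Some genes were close to absent in 1 of the groups. Their mean level lay below that set for naming, and they were chosen after their values were seen. Cry1, a repressor of the circadian clock (chromosome 10, 85131700 to 85185064, minus strand), had 189, 87 and 111 polysomal counts in naive lines 6, 33 and 38, and 0 in each everolimus line. Against a floor of 3 counts over the group, it was at least 135-fold lower (adjusted p = 0.00129). Input RNA of the same lines held 139, 59 and 74 counts against 0, 0 and 0, at least 75.4-fold lower. The combination lines held 0, 1 and 0 polysomal counts. The genes beside it did not pass. Tmem263, 29 kb away, was at -0.12 ± 0.15, Mterf2, 12 kb away, at 0.17 ± 0.23, and Pwp1 at 0.03 ± 0.10. Of the other clock repressors, Cry2 and Per1 were at 0.50 ± 0.12 and 0.50 ± 0.12 (adjusted p = 0.0926 and 0.094). Per2 and Per3 were at 0.48 ± 0.14 and 0.52 ± 0.25 (adjusted p = 0.162 and 0.397), and none of these passed. In input RNA Cry2, Per1 and Per2 rose by 0.59 ± 0.13, 0.58 ± 0.12 and 0.65 ± 0.12 (adjusted p = 0.0194, 0.0175 and 0.0119). Over all genes 6.25% rose there, and Per3 did not pass (0.70 ± 0.30, adjusted p = 0.132).
The promoter window of Cry1 is shown because no counts of the gene were found in the everolimus lines, with capitals on CACGTG, the E-box bound by CLOCK and BMAL1 and also by Myc and Max, and on GTAAACA, the reverse complement of the forkhead motif TGTTTAC.
Cry1 promoter, chr10:85185055-85185304, minus strand: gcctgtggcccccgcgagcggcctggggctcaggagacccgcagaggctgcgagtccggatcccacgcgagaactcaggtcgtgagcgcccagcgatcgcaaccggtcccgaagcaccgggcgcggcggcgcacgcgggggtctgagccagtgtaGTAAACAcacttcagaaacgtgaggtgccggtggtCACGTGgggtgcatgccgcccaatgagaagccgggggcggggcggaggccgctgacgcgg
The matches start 60 and 95 bases upstream of the start. CACGTG occurs in 6.02% and TGTTTAC or its reverse complement in 3.17% of the 32851 windows.

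Zfp518b, a zinc finger protein, followed the same pattern. It had 90, 54 and 60 polysomal counts in naive lines 6, 33 and 38 and 0, 1 and 0 in everolimus lines 4, 12 and 26. The summed counts, 204 against 1, differed 214-fold after scaling by library size (95% counting interval 38 to 8500), and the gene fell (adjusted p = 0.000816). Input RNA held 51, 28 and 53 counts against 1, 6 and 5. Its neighbours Wdr1 and Slc2a9 were at 0.05 ± 0.14 and -0.07 ± 0.21. Dlk1, an imprinted ligand-like inhibitor of Notch, stood at 2.47, 2.62 and 1.78 in the naive lines and at -1.13, -0.79 and -0.68 in the everolimus lines, which were all near the lower end of what can be measured. Its log2 fold change was -3.42 ± 0.44 (adjusted p = 0.00887). Egfl6, a secreted EGF-like protein, went from 0.16, 1.5 and 1.90 to -0.95, -2.24 and -1.59 (log2 fold change -3.32 ± 0.59, adjusted p = 0.0351).

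The reverse pattern was seen in Ext1, a polymerase of heparan sulfate chains. It had 0, 3 and 1 polysomal counts in naive lines 6, 33 and 38 and 30, 136 and 45 in everolimus lines 4, 12 and 26. The summed counts, 211 against 4, differed 50.2-fold (95% counting interval 19.3 to 186), and the gene rose (adjusted p = 0.0102). Its partner Ext2 was at -0.15 ± 0.13, and the nearest tested coding genes on either side, Med30 and Taf2, at -0.11 ± 0.12 and -0.08 ± 0.12. Hey1, a transcriptional repressor induced by Notch, rose from 10 to 96 summed counts, 9.14-fold (4.76 to 19.7, adjusted p = 0.0499). Its levels were -2.06, -1.52 and -2.17 in the naive and 0.37, 1.27 and -0.23 in the everolimus lines. Airn, a long noncoding RNA, went from 1 to 55 summed counts and passed (adjusted p = 0.0222). However, it lies antisense to Igf2r and the strand of counting is not stated, so its reads are uncertain. With 1 line left out, the Hey1 and Airn calls each held in 1 of 6 edgeR fits (adjusted p up to 0.222 and 0.124). The Ext1 call held in 5 of the 6 (adjusted p up to 0.0755).

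Genes of the phagocyte NADPH oxidase, which makes superoxide and is also used by B cells, were set together after their values were seen. Cybb, the catalytic subunit, stood at 3.93, 3.20 and 3.42 in naive lines 6, 33 and 38 and at 5.11, 5.81 and 5.57 in everolimus lines 4, 12 and 26. Ncf1, the cytosolic organiser p47phox, was at 2.53, 2.22 and 1.5 in the naive lines and at 3.30, 3.93 and 4.14 in the everolimus lines. In neither gene did the groups overlap. Cybb rose by 1.99 ± 0.30 (adjusted p = 0.0214) and Ncf1 by 1.71 ± 0.29 (adjusted p = 0.0333). The subunits Cyba, Ncf4 and Rac2 lay between -0.15 and 0.15 and did not pass. Both calls ended in 4 of the 6 fits with 1 line left out (adjusted p up to 0.133 and 0.17). Of the 15 macrophage and myeloid markers 6 were at 0 in all 6 libraries (Fcgr1, C1qa, C1qb, Ly6g, S100a8 and S100a9), and their sum reached 23.6 CPM in the everolimus against 16.1 CPM in the naive lines, whose part in these rises was not tested.

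Antigen presentation genes were mostly on the higher side. Of 29 tested members, H2-Eb1 and H2-Q6 rose and 0 fell by edgeR, against 0.35% and 0.136% of all genes. The list's median of 0.33, compared with -0.01 over all genes, was the highest of the 33 pathway lists. H2-Eb1, the β chain of the class II molecule I-E, stood at 3.42, 3.75 and 3.19 in naive lines 6, 33 and 38 and at 4.62, 5.75 and 4.75 in everolimus lines 4, 12 and 26. The groups were apart, and it rose by 1.67 ± 0.31 (adjusted p = 0.0408). H2-Q6, a class Ib molecule with near-identical relatives whose reads may be shared, rose by 1.01 ± 0.18 (adjusted p = 0.0342). The class II transactivator Ciita was at 1.30 ± 0.25, the invariant chain Cd74 at 1.42 ± 0.28 and the class II chain H2-Aa at 1.08 ± 0.22, and these missed the threshold (adjusted p = 0.054, 0.0571 and 0.0703). In each of the 3 the everolimus libraries were all above the naive ones. Cd74 stood at 7.95, 8.12 and 7.43 in the naive lines and at 9.13, 9.52 and 9.17 in the everolimus lines. DESeq2 called 9 of the 29 higher, Cd74, Ciita and H2-Aa among them, against 1.8% of all genes it tested. At an unadjusted p of 0.05 by edgeR, 13 of the 29 were higher and 0 lower, against 6.9% and 6.74% of all genes. Both edgeR calls ended without any 1 line other than everolimus line 4 (adjusted p up to 0.22 for H2-Eb1 and 0.178 for H2-Q6).

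The drug's own pathway showed no member past the threshold by edgeR in polysomal RNA. Of 56 tested genes of the mTORC1 list 0 were called by edgeR, against 0.486% of all genes, with a median of 0.05. At an unadjusted p of 0.05, 9 were higher and 2 lower. Over all genes 13.6% passed that p, 6.9% higher and 6.74% lower. DESeq2 called 1 lower, against 1.06% of all genes it tested, which was Mtor, the kinase itself. Mtor stood at 9.14, 9.32 and 9.25 in naive lines 6, 33 and 38 and at 8.70, 8.33 and 8.66 in everolimus lines 4, 12 and 26. The everolimus lines were all lower, with a log2 fold change of -0.66 ± 0.17 (adjusted p = 0.117 by edgeR), and in input RNA it was -0.26 ± 0.21 (adjusted p = 0.415). Fkbp1a, the binding partner of everolimus, was at -0.13 ± 0.14, Rptor at -0.01 ± 0.10, Rictor at -0.16 ± 0.13 and Eif4e at 0.03 ± 0.10. The translational repressors Eif4ebp1 and Eif4ebp2 were at 0.04 ± 0.17 and 0.39 ± 0.13 (adjusted p = 0.949 and 0.244). In input RNA 8 of 55 tested members of the list rose and 3 fell by edgeR, against 6.25% and 5.46% of all genes. Tsc2 rose there by 0.44 ± 0.11 (adjusted p = 0.029). Rheb and Rps6kb1 fell there, with log2 fold changes of -0.66 ± 0.17 and -0.53 ± 0.15 (adjusted p = 0.0326 and 0.0376).

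Protein synthesis genes, the best known targets of mTORC1 at the level of translation, also held 0 calls by edgeR and 0 by DESeq2. Over all genes edgeR called 0.486% and DESeq2 2.87%. For the 79 genes of cytosolic ribosomal proteins the median change was -0.03, and changes ranged from -0.34 for Rpl37 to 0.49 for Rplp1, with 1 higher and 2 lower at an unadjusted p of 0.05. The 31 other TOP mRNAs, whose translation depends on a terminal pyrimidine tract, had a median of -0.04, with 2 higher and 0 lower at that p. The 59 translation factors were at -0.02 (3 higher and 1 lower), the 21 genes of RNA polymerase I at 0.03 (0 and 0) and the 83 ribosome biogenesis factors at 0.01 (3 and 4).

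The gene Myc, which the transgene expresses, was measured at 10.28, 10.02 and 9.95 in naive lines 6, 33 and 38. In everolimus lines 4, 12 and 26 it was at 10.46, 10.99 and 10.88. The groups did not overlap, but the change of 0.70 ± 0.15 missed the threshold by edgeR (adjusted p = 0.0757), whereas DESeq2 called it. In input RNA it rose by 0.65 ± 0.16 (adjusted p = 0.0276). Trp53 was at 0.48 ± 0.15 (adjusted p = 0.192), and in input RNA it rose by 0.70 ± 0.15 (adjusted p = 0.0194). Its upstream regulator Cdkn2a was at -0.02 ± 0.25. Among survival genes Bcl2 was at 0.05 ± 0.19, Mcl1 at 0.17 ± 0.14, Bcl2l11, which encodes BIM, at -0.08 ± 0.13, Pim1 at -0.02 ± 0.11 and Pim2 at 0.10 ± 0.14. The drug efflux pumps Abcb1a and Abcb1b were at 0.72 ± 0.38 and 0.76 ± 0.24 (adjusted p = 0.442 and 0.211), and the cAMP-activated exchange factor Rapgef3, also called EPAC1, at 0.22 ± 0.26 (adjusted p = 0.776). Of the 28 genes named whatever their result, 0 passed by edgeR in polysomal RNA. At an unadjusted p under 0.05 there were 6 (13.6% over all genes), and DESeq2 called 2 (2.87% over all genes). In input RNA 6 of the 28 passed by edgeR (11.7% over all genes).

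Of the 33 pathway lists, 28 held 0 calls by edgeR, which called 0.35% of all genes higher and 0.136% lower. PI3K and AKT signalling held 0 rises and 2 falls among 29 tested, the receptor Igf1r and the adaptor Pik3ap1 described above, at a median of 0.02. Wnt and Notch signalling held 2 rises, Hey1 and the stem cell receptor Lgr5 (1.06 ± 0.17, adjusted p = 0.0282), and 1 fall, Fzd7, among 27, at a median of -0.15. The lowest member of that list, Rnf43, a ubiquitin ligase that removes Wnt receptors, did not pass, and the everolimus lines differed widely among themselves. It stood at 6.49, 6.29 and 6.15 in naive lines 6, 33 and 38, at 4.33 in everolimus line 4, and at -2.24 and -2.20 in lines 12 and 26. All 3 everolimus lines were lower (log2 fold change -3.61 ± 1.08, adjusted p = 0.175). Lef1, a partner of β-catenin, differed as widely among them, with levels of 4.68, -0.88 and 1.84 in lines 4, 12 and 26 against -0.17, -1.01 and -1.11 (adjusted p = 0.266).

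In other lists with 0 calls by edgeR, members at an unadjusted p of 0.05 are given beside the 6.9% of all genes that were higher and 6.74% that were lower at that p. DESeq2 called 1.8% of all genes it tested higher and 1.06% lower. G2 and mitosis genes had a median of -0.19, with 4 of 36 above 0 and with 0 higher and 7 lower at that p, and the cyclin Ccnb2 was at -0.38 ± 0.10 (adjusted p = 0.122). Genes of the unfolded protein response and folding in the endoplasmic reticulum had a median of -0.20, the lowest of the lists, with 1 of 28 higher and 11 lower at that p. Its members Edem1, which helps remove misfolded glycoproteins, and the chaperone Dnajc3 were at -0.50 ± 0.11 and -0.50 ± 0.11 (adjusted p = 0.0709 and 0.0795), and DESeq2 called 5 of the list lower. NF-κB signalling had a median of 0.24, with 7 of 23 higher and 0 lower at that p. Its subunit Nfkb2 was at 1.00 ± 0.24 (adjusted p = 0.103) and was 1 of 2 that DESeq2 called higher. MAPK feedback genes had a median of 0.26, with 10 of 37 higher and 1 lower at that p, and the inhibitor Spry4 was at 1.86 ± 0.38 (adjusted p = 0.0676). By DESeq2 3 of that list were higher and 1 lower. ATF4 targets (48 tested), glycolysis (24) and nuclear respiratory chain subunits (77) had medians of -0.03, -0.04 and -0.04 and 0 calls by edgeR. Their members at that p were 3 higher and 2 lower, 1 and 1, and 0 and 6, and DESeq2 called 2, 1 and 0. Genes of the TCA cycle (37 tested) had a median of -0.09, with 3 higher and 11 lower at that p, and DESeq2 called 0. Heat shock chaperones (27) and sterol and fatty acid synthesis (37) had medians of -0.18 and -0.16, each with 0 higher and 6 lower at that p. DESeq2 called 1 and 2 of these lower.

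Input RNA of the same 6 lines asked whether the polysomal changes were present in the cytoplasm as a whole. Of 14474 genes tested 1694 were called (11.7%), 904 higher (6.25%) and 790 lower (5.46%), a count that varied from 90 to 991 with 1 line left out. It was 90 without everolimus line 12 and 201 without line 26. Naive line 38 detected 30163 genes in input RNA, against 18125 to 21645 in the other 5, and without it 916 were called. Of the 54 genes that rose in polysomal RNA, 53 were tested in input RNA, where 36 were higher and 0 lower. Of the 21 that fell, 20 were tested, and 14 were lower and 0 higher. Of the 12 largest rises 11 were also called in input RNA, all but Plek (2.13 ± 0.65, adjusted p = 0.0538), and of the 12 largest falls 9 were, all but Ccnd3, Baiap2 and Pik3ap1. Rag1 rose in input RNA by 2.21 ± 0.28 (adjusted p = 0.00631), whereas Rag2 was at 0.62 ± 0.24 (adjusted p = 0.107). The calls in the 2 fractions come from the same cells, and are not independent.

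**Figure D4:**
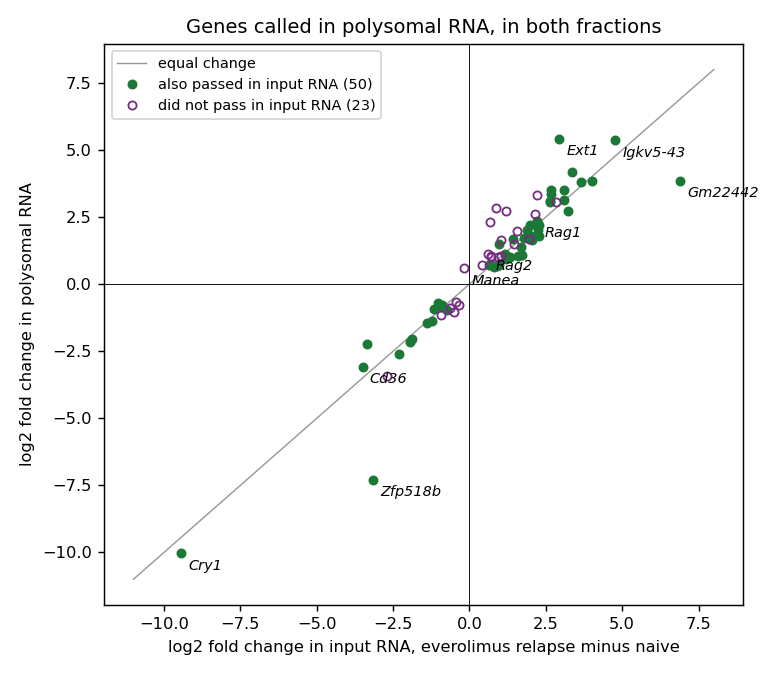
Log2 fold changes of the 73 called genes that were tested in both fractions, input RNA on the horizontal and polysomal RNA on the vertical axis, everolimus relapse minus naive, with the line of equal change. Filled points (50 genes) also passed in input RNA, and all but Manea lie on the same side of 0 in both fractions.

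Translational efficiency, the difference between the polysomal and the input change within lines, gave 0 calls among 16822 genes (edgeR, smallest adjusted p = 0.165). At an unadjusted p of 0.05, 1443 genes were higher and 879 lower. In simulated data of 15434 genes the same fit recovered 89.4% of planted 4-fold, 28.4% of 2-fold and 5.97% of 1.5-fold changes. These were planted only in genes well above the filter on low counts. The simulated input counts were drawn from polysomal levels and spread, without differences between lines. The rates therefore do not measure what the fit could find in the real data, where smaller differences could be missed. Without naive line 6 there were 29 calls, 27 of them higher. In each fraction the columns of the deposited data are ordered in 2 runs of lines. The 2 fractions of every naive line lay in different runs, and those of every everolimus line in the same run. What the runs stand for is not given in the labels. No efficiency fit held a term for them, so their part in the efficiency values was not tested. The efficiency term was 0.18 ± 0.17 for Rag1, 0.53 ± 0.35 for Rag2, -0.38 ± 0.16 for Mtor and -0.33 ± 0.29 for Igf1r (adjusted p = 0.677, 0.531, 0.332 and 0.646). Over the 54 rises the term ranged from -2.73 to 4.74 with a median of 0.13, and over the 21 falls from -4.05, for Zfp518b, to 1.17 with a median of -0.19. Ribosomal protein genes had a median of -0.16 and the other TOP mRNAs 0.15, against 0.03 over all genes.

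The lines that relapsed under CX-5461, an inhibitor of RNA polymerase I, together with everolimus were compared to see where everolimus lines stood apart. Of the 15434 genes tested, 993 differed between combination and everolimus lines (6.43%), 428 higher in the combination lines (2.77%) and 565 lower (3.66%), with 128 to 1348 calls when 1 line was left out, the fewest without everolimus line 26. Of the 54 rises, 12 were higher still in the combination lines and 1 was lower. Of the 21 falls, 4 were higher and 4 were lower. These counts, and the values of called genes given below, reuse the everolimus libraries by which the 54 and 21 genes were called. They are therefore not independent of those calls. Against the naive lines, which both comparisons share, 53 of the 54 rises and 17 of the 21 falls were also called in the combination lines, where 3274 genes were called in all (21.2%), 9.86% higher and 11.4% lower.

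Igf1r and Fzd7 were low only in the everolimus lines of these 3 groups. The test between the drug groups reuses the everolimus libraries in which both were called as falls, so it is not independent of that call. Igf1r stood at 5.02, 4.57 and 3.86 in combination lines 8, 9 and 31, above the everolimus lines by 3.18 ± 0.42 (adjusted p = 0.00674), and it was at 0.59 against the naive lines (adjusted p = 0.283). Fzd7 was at 2.61, 3.02 and 2.84, above the everolimus lines by 2.85 ± 0.30 (adjusted p = 0.00446), and at 0.61 against the naive lines (adjusted p = 0.132). In both genes the combination libraries were all above the everolimus ones. Hey1 and Lgr5 were higher again in the combination lines, by 2.93 ± 0.41 and 1.74 ± 0.17 over the everolimus lines (adjusted p = 0.00748 and 0.00446). Rag1 was higher by 0.96 ± 0.25 (adjusted p = 0.0482), and H2-Eb1 by 1.20 ± 0.29 (adjusted p = 0.0359), whereas H2-Q6 was lower by a log2 fold change of -0.79 ± 0.18 (adjusted p = 0.0259).

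Cd36 was lower again in the combination lines, at -0.53, 0.37 and 0.26, with a log2 fold change of -2.64 ± 0.60 from the everolimus lines (adjusted p = 0.0281). Ccnd2, another D-type cyclin, was close to the naive lines in the everolimus lines (4.60, 4.57 and 5.41 against 5.60, 4.95 and 5.54). In combination lines 8, 9 and 31 it was at 2.19, -1.48 and -1.25, lower than in the everolimus lines by a log2 fold change of -4.29 ± 0.71 (adjusted p = 0.00989). Ly6d, a surface antigen of early B-lineage cells, the cAMP phosphodiesterase Pde8a and the granule protein gene Prg3 were lower as well than in the everolimus lines, at -2.86 ± 0.63, -3.44 ± 0.38 and -3.15 ± 0.48 (adjusted p = 0.0258, 0.00446 and 0.00786). Ank, a pyrophosphate transporter, and Spry1, a feedback inhibitor of receptor kinases, were higher by 3.05 ± 0.41 and 2.97 ± 0.58 (adjusted p = 0.0069 and 0.0171). None of Ccnd2, Ly6d, Pde8a, Prg3, Ank and Spry1 passed between everolimus and naive lines by edgeR, where Pde8a was at -1.16 ± 0.31 (adjusted p = 0.129) and Spry1 at 2.50 ± 0.77 (adjusted p = 0.192).

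**Figure D5:**
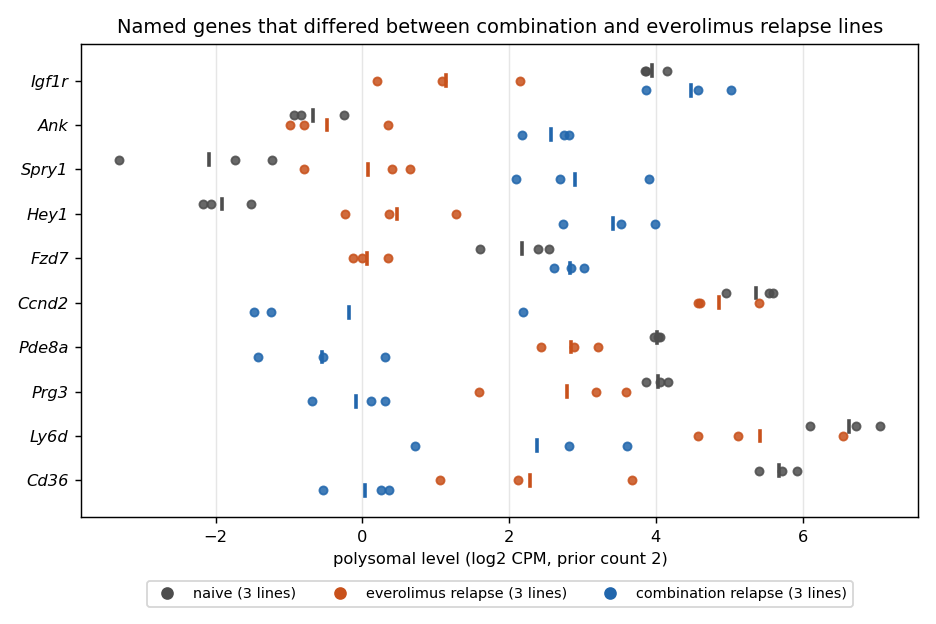
Polysomal levels in log2 CPM of the 10 named genes that differed between combination and everolimus relapse lines, with 1 point per library, naive lines in grey, everolimus lines in orange, combination lines in blue, and a bar at each mean. Igf1r and Fzd7 are lowest in the everolimus lines, Cd36 falls in steps from naive to everolimus to combination lines, and Ccnd2 is low in the combination lines.

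In the acute experiment, cells of another Eμ-Myc clone, #4242, were taken from C57BL/6 mice 2 h after a dose of 5 mg/kg everolimus, with 6 mice per group. There 23 of 15374 genes differed from vehicle in polysomal RNA (0.15%), 7 higher (0.0455%) and 16 lower (0.104%). Of the 54 genes that rose in the everolimus relapse lines 51 were tested there and 0 passed (smallest adjusted p = 0.148), and of the 21 that fell 21 were tested and 0 passed (smallest adjusted p = 0.328, edgeR). Their medians in the acute experiment were 0.06 and 0.10.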

How the data were processed

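The deposited tables hold raw read counts per gene symbol, 1 column per library and none pooled, with 35556 genes in each relapse table. TopHat2, HTSeq and GRCm38 are named, without versions or roles, per the submitters' processing notes. Per the labels' protocols, reads were single-end, 50 bases long, from RNA depleted of ribosomal RNA. The strand setting and annotation are not given in the sources used here, so antisense and overlapping genes are uncertain.

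Counts were filtered with edgeR's filterByExpr and scaled by TMM. The comparison came from edgeR 4.0.16 quasi-likelihood tests in R 4.3.3 on 10 polysomal libraries (3 naive, 3 everolimus, 3 combination and 1 CX-5461), which share 1 estimate of spread. The polysomal libraries of CX-5461 lines 14 and 39 were left out, because 506 genes with a mean of at least 50 counts elsewhere were at 0 in both. Input RNA was fitted on 12 libraries, translational efficiency on 20 with a block on the line, and the acute experiment on 24. P-values were adjusted by Benjamini-Hochberg over all genes tested, with a threshold of 0.05. The SE was obtained by dividing the size of the log2 fold change by √F. Ratios of summed counts carry 95% exact binomial intervals for counting error only, and against 0 counts the floor was 3 counts over the group. In data simulated from the polysomal counts of 15434 genes, planted 4-fold, 2-fold and 1.5-fold changes were recovered in 97%, 83.6% and 16.4% of cases, and 11 of 142 calls were of unchanged genes. Changes were planted only in genes well above the filter on low counts, so these rates do not cover genes of low level.

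Genes were named by rule: the 12 largest called rises and 12 largest called falls whose average over the 6 libraries reached 1 log2 CPM and whose groups did not overlap, clone and predicted names passed over, up to 3 called members per direction of each list, the 5 largest differences per direction of combination minus everolimus, and 28 genes whatever their result. The comparison, the rule and the 40 gene lists were chosen with earlier results of these data known. Alternatives were DESeq2 1.42.0, its size factors, dropping the filter on low counts, fitting only the 2 groups compared, all 12 polysomal libraries and each line left out, and, chosen after seeing the data, the order of columns in the table. Coordinates are from GENCODE (GRCm38), matched by symbol, and promoters from RefSeq (GRCm38.p6). The acute input table was not used here.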

Additional observations from a re-analysis of the deposited data

How the results depend on the processing

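The count of genes called between everolimus and naive lines in polysomal RNA was 75 and depended on the setting. It was 420 by DESeq2, 781 with no count filter, 118 with the compared groups alone (70 of the 75 among them), 17 with all 12 polysomal libraries, and 13 to 189 with 1 line left out. With a term for the 2 runs in which line columns are ordered in the deposited table, a setting chosen after seeing the data, it was 706, and within the second run, without naive line 6 and everolimus line 12, it was 35. The split of higher against lower calls was 54 to 21, and with no count filter 457 to 324. DESeq2's size factors gave 76. In input RNA the count was 1694, and it was 680 with the compared groups alone, 4490 with the column term, and 90 to 991 with 1 line left out. For translational efficiency it was 0, also with no replicate block on the line, but 366 with no count filter and 0 to 29 with 1 line left out, the 29 without naive line 6. Between combination and everolimus lines it was 993, with 2024 under no count filter and 128 to 1348 with 1 line left out. In the acute experiment it was 23, with 15 under the replicate block, 12 with no count filter and 87 by DESeq2. No paired analysis was possible for the relapse lines because the naive and everolimus lines share no numbers. Of 1411 values of single genes under these settings, 1037 kept their side of the threshold, 354 lost it, 20 gained it, and 0 reversed while called. At 16468493 to 26520590 counts per library, genes with a handful of counts have wide intervals, and changes under 2-fold were often missed in simulated data. The causes of these differences were not tested.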
